A study of Mus musculus with 6 samples.

Results

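The 10 genes described here belong to the myostatin and activin signalling route of skeletal muscle or are related to it. They are the ligand *Mstn*, the receptors *Acvr2a*, *Acvr2b* and *Acvr1b*, and the extracellular inhibitors *Fst* and *Fstl3*. The others are the follistatin relative *Fstl1* and the intracellular *Smad2*, *Smad3* and *Smad7*. All were chosen by symbol, and 10 of the 37979 genes of the expression table carried these symbols. RNA-seq was performed on gastrocnemius (GAS), a calf muscle, from 3 wildtype (WT) and 3 Kvβ2 knockout (KO) male mice, 20 weeks of age and untreated, with 1 library per mouse. Both genotypes came from matings of mice that carry a null allele of *Kcnab2*, the gene of the potassium channel subunit Kvβ2, and in KO mice the deletion is in every cell rather than in muscle alone. The libraries of each genotype are numbered 1, 7 and 8. The deposited values are FPKM, fragments scaled to transcript length and to the mapped fragments of a library, so that levels can be set side by side between genes of different length.

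Myostatin and the activins are secreted dimers that limit muscle growth. They bind a type II receptor (ACVR2A or ACVR2B), which recruits and phosphorylates a type I receptor such as ACVR1B (ALK4). That receptor phosphorylates SMAD2 and SMAD3, which enter the nucleus with SMAD4, while the inhibitory SMAD7 acts back on the receptors. Follistatin and its relative FSTL3 bind the ligands outside the cell, and muscle lacking myostatin is greatly enlarged.

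The libraries held between 13920000 and 20140000 fragments, as estimated from the steps of low FPKM values, with 13920000 to 18150000 in KO and 19230000 to 20140000 in WT. *Kcnab2*, the targeted gene, ranged from 0.10 to 0.233 FPKM in WT. In KO it was listed at 0 in replicates 1 and 8 and reached 0.0151 FPKM in replicate 7, under every WT value (two-sided exact permutation p = 0.1, which is the floor for 3 against 3 libraries). All 14 markers of skeletal muscle fibres were above 0, with a summed level of 24628 to 37409 FPKM in WT and 42612 to 46061 FPKM in KO. Taken singly, 5 of the 14 did not overlap between the genotypes, against 34.5% of all genes tested below. The sums are as deposited, without correction for GC content, which differences between the genotypes followed across the whole table (below). In bulk tissue, fewer cells of a type and less RNA per cell cannot be told apart.

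Promoter sequences are shown for *Mstn*, *Acvr2a* and *Acvr1b*, the ligand and a receptor of each type, since these are among the genes whose levels the results turn on. Each is the 250 bases before the RefSeq start of the gene on the plus strand of GRCm38.p6, and RefSeq entries were matched for 7 of the 10 genes. The RefSeq starts of *Acvr2b* and *Acvr1b* lie downstream of the GENCODE starts printed with these genes below, so that their windows reach into the gene as GENCODE annotates it. The windows are chr1:53061390-53061639 for *Mstn*, chr2:48813859-48814108 for *Acvr2a*, chr9:119401928-119402177 for *Acvr2b* and chr15:101173822-101174071 for *Acvr1b*. Capitals mark the letters TATAAA (the TATA box) and CAGAC or its reverse complement GTCTG (the SMAD box).
Mstn promoter: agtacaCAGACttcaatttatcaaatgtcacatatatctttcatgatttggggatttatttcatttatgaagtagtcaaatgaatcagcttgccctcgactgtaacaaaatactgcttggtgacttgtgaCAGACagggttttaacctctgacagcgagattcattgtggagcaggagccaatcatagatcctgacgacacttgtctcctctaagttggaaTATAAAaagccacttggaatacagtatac
Acvr2a promoter: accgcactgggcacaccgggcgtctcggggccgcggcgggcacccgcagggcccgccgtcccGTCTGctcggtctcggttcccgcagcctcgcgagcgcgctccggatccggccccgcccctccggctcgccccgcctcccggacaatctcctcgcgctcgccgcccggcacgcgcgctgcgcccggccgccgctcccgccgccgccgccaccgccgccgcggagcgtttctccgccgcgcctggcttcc
Acvr1b promoter: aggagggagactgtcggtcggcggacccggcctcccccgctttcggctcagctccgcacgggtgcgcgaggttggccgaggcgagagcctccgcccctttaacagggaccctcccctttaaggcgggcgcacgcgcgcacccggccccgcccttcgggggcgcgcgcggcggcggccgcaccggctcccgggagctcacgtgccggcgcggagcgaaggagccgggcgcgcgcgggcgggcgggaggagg

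The *Mstn* promoter had a GC content of 38.4% with 3 CpG dinucleotides, and a TATAAA that starts 29 bases before the gene. By contrast, GC content was 82% with 49 CpG for *Acvr2a*, 72.8% with 24 CpG for *Acvr2b* and 78.8% with 42 CpG for *Acvr1b*, and the median over all 32851 promoters was 52.4% with 6 CpG. No TATAAA stood in the 3 receptor windows, and TATAAA in either direction was found in 12.4% of all promoters. The SMAD box occurred in 2 places in the *Mstn* window and in 1 place each for *Acvr2a* and *Acvr2b*, against 42.2% of all promoters with at least 1, so its presence is common. The *Fstl3* window, at 71.2% GC with 22 CpG, also had 2 SMAD boxes, and a TATAAA, in either direction, 29 bases before the RefSeq start. Neither feature was thus particular to *Mstn* among these genes. The palindrome GTCTAGAC, present in 0.167% of promoters, was in none of the 7 windows. No entry was matched for *Fst*, *Smad2* and *Smad7*.

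*Mstn* (ENSMUSG00000026100) encodes myostatin and is located at 53061640 to 53068079 of chromosome 1 (GRCm38, plus strand). Here and for each gene below, values are given in the order of replicates 1, 7 and 8. *Mstn* read 49.9, 70.0 and 68.1 FPKM in the WT libraries and 74.1, 28.1 and 50.8 FPKM in the KO libraries. The genotypes overlapped: KO replicate 1 was the highest and KO replicate 7 the lowest of the 6 libraries. The mean was 62.7 ± 11.1 FPKM in WT and 51.0 ± 23.0 FPKM in KO (SD, n = 3), a log2 fold change of -0.39 (SE 0.33, 95% interval -1.16 to 0.38, adjusted p = 0.472, limma). Fold changes here are KO against WT on log2(FPKM + 0.1), and adjusted p-values run over the 12334 genes tested, whose mean over the 6 libraries reached 0.5 FPKM. The difference did not pass the test. Without KO replicate 7 the log2 fold change was -0.015.

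The spread of *Mstn* was wider in KO than in WT. Its highest KO library was 2.63-fold above its lowest, against 1.40-fold in WT. Its standard deviation within genotypes, on the log2 scale, exceeded that of 90.5% of the tested genes, although its mean level was above that of 92.6% of them. KO replicate 7, the lowest in *Mstn*, had the highest summed level of the 5 adipocyte markers, 148 FPKM, against 42.1 and 39.0 FPKM in KO replicates 1 and 8 and 7.04 to 31.6 FPKM in WT. Of these 5 markers, 4 were higher in KO at an unadjusted p under 0.05, against 15.3% of all tested genes, and 0 passed the adjusted test. Of the 4, *Plin1* and *Retn* had WT means of 0.276 and 0.460 FPKM and reached the minimum mean for testing only through KO. KO replicate 7 also had the highest sums of macrophage and leukocyte (21.0 FPKM), Schwann cell (82.8 FPKM) and endothelial markers (51.5 FPKM). It was not the highest for fibroblast, tendon, smooth muscle, satellite or red blood cell markers. The 3 libraries highest in *Mstn* (KO replicate 1 and WT replicates 7 and 8) were the 3 lowest in the slow-fibre troponin *Tnnt1*, at 36.5, 84.5 and 1.10 FPKM, against 128, 132 and 251 FPKM in the others. *Tnnt1* was singled out after its values were seen, and the part of adipose tissue, other cell types or fibre type in the level of *Mstn* was not tested. Over the 6 libraries, the 5 genes most like *Mstn* by Pearson's r of log2(FPKM + 0.1) were *Atp8a1* and *Rtkn2* (r = 0.992 each), *Cmbl* (r = 0.987), *Tada2a* and *Tbc1d19* (r = 0.986 each). With 6 libraries such values are common, since 225 of the 6085 genes compared had r above 0.9, and the points share their library, depth and base composition.

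**Figure D1:**
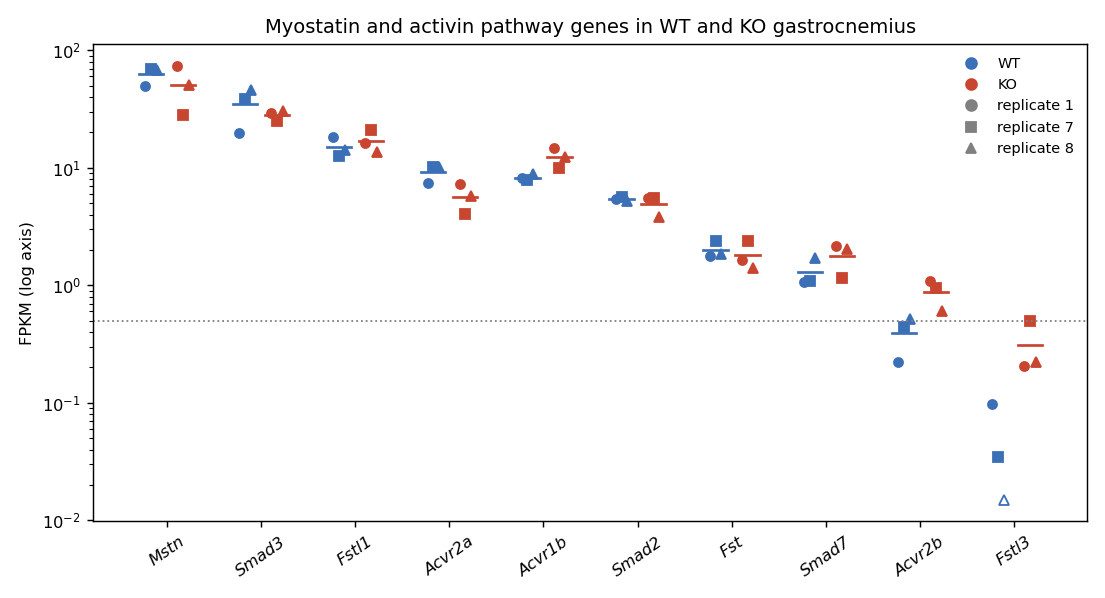
Level of each of the 10 genes in the 6 libraries, in FPKM on a log axis, with WT in blue, KO in red, a symbol per replicate number and a bar at the mean of each genotype. The dotted line is the minimum mean of 0.5 FPKM for testing, and the open triangle at the foot is *Fstl3* in WT replicate 8, listed at 0 and given no mean bar. The genotypes are separate in *Acvr2a*, *Acvr1b*, *Acvr2b* and *Fstl3*, and KO replicate 7 is the lowest in *Mstn* and *Acvr2a*.

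Of the 9 tested genes, the genotypes were separate in the 3 receptors, in opposite directions, and they were separate in 34.5% of all tested genes. *Acvr2a* was lower in every KO library, while *Acvr2b* and *Acvr1b* were higher in every KO library, although none of the 3 passed the adjusted test. *Acvr2a* (ENSMUSG00000052155), a type II receptor, lies on the plus strand of chromosome 2, 48814109 to 48903269. It was at 7.47, 10.3 and 10.1 FPKM in the WT libraries and at 7.25, 4.01 and 5.81 FPKM in the KO libraries. The closest libraries, WT replicate 1 and KO replicate 1, differed little. The means were 9.28 ± 1.57 and 5.69 ± 1.62 FPKM (SD, n = 3), a log2 fold change of -0.72 (SE 0.23, 95% interval -1.26 to -0.18, adjusted p = 0.119). In all, 446 exonic bases of *Acvr2a* overlap *Orc4*, a gene of the origin recognition complex on the other strand. *Orc4* had a log2 fold change of -0.59 (adjusted p = 0.0667), at 15.0 to 16.5 FPKM in WT and 10.2 to 10.9 FPKM in KO. The library kit keeps strand, but whether strand was used in quantification is not given in the sources used here, so fragments of the shared bases may be assigned to either gene.

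*Acvr2b* (ENSMUSG00000061393), the other type II receptor, on the plus strand of chromosome 9, 119402118 to 119434995, was far lower in level. It read 0.221, 0.446 and 0.515 FPKM in the WT libraries, against 1.09, 0.944 and 0.610 FPKM in the KO libraries. The lowest KO library stood above the highest WT library by a small margin. The means were 0.394 ± 0.154 FPKM in WT and 0.883 ± 0.248 FPKM in KO (SD, n = 3), a log2 fold change of 1.01 (SE 0.39, 95% interval 0.11 to 1.92, adjusted p = 0.159). These levels correspond to about 13.5 to 54.4 fragments per library, so counting error is large. The WT mean was under the minimum of 0.5 FPKM, so *Acvr2b* was tested only because its KO libraries were higher.

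*Acvr1b* (ENSMUSG00000000532), the type I receptor ALK4, is on the plus strand of chromosome 15, 101174067 to 101213684. Its level was 8.16, 7.85 and 8.79 FPKM in the WT libraries and 14.8, 9.88 and 12.3 FPKM in the KO libraries. WT libraries were tightly grouped, and every KO library was above them. The means were 8.27 ± 0.480 and 12.3 ± 2.47 FPKM (SD, n = 3), a log2 fold change of 0.55 (SE 0.16, 95% interval 0.18 to 0.93, adjusted p = 0.101). For each of *Acvr2a*, *Acvr2b* and *Acvr1b* the exact permutation test gave p = 0.1, two-sided, the smallest it can give. Leaving out each library in turn gave log2 fold changes of -0.91 to -0.50 for *Acvr2a* (-0.50 without KO replicate 7), 0.73 to 1.23 for *Acvr2b* and 0.41 to 0.70 for *Acvr1b*.

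**Figure D2:**
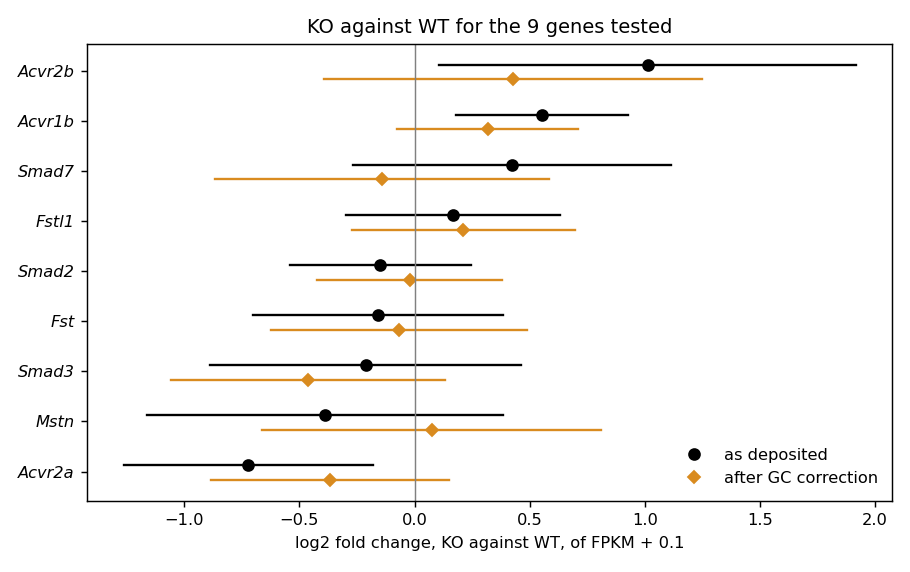
Log2 fold change of KO against WT of the 9 genes tested, from limma on log2(FPKM + 0.1), with 95% intervals, as deposited (black) and after GC correction (orange). As deposited, the intervals of *Acvr2b*, *Acvr1b* and *Acvr2a* do not include 0, and after GC correction all 9 do.

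The receptor levels were also set against each other within each library, in which case factors that scale a whole library cancel. The ratio of *Acvr1b* to *Acvr2a* FPKM was 1.09, 0.765 and 0.870 in the WT libraries and 2.05, 2.46 and 2.11 in the KO libraries. WT muscle thus held about as much of the one as of the other, and every KO library held more *Acvr1b*. The mean ratio was 0.909 ± 0.168 in WT and 2.21 ± 0.225 in KO (SD, n = 3), a log2 difference of 1.29 (two-sided exact permutation p = 0.1, and 0.25 after adjustment over 5 ratios). Since *Acvr1b* was higher and *Acvr2a* lower in every KO library, this separation and its permutation p followed from the single genes. Leaving out each library in turn kept the log2 difference between 1.17 and 1.43. After GC correction it was 0.69 and the genotypes still did not overlap.

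*Acvr2a* outweighed *Acvr2b* in every library. The ratio of *Acvr2a* to *Acvr2b* was 33.8, 23.0 and 19.6 in the WT libraries and 6.62, 4.25 and 9.52 in the KO libraries, with no overlap (log2 difference -1.94, and -0.80 after GC correction, exact permutation p = 0.1, 0.25 adjusted over the 5 ratios). As *Acvr2a* was lower and *Acvr2b* higher in every KO library, that p and the lack of overlap as deposited followed from the single genes. *Acvr2b* made up 2.87% to 4.85% of the summed type II receptor FPKM in WT and 9.50% to 19.1% in KO. The sum itself was 7.69, 10.7 and 10.6 FPKM in the WT libraries and 8.34, 4.95 and 6.42 FPKM in the KO libraries, and overlapped between the genotypes. The ratios of *Mstn* to *Fst*, *Mstn* to *Fstl1* and *Smad3* to *Smad2* overlapped too (exact permutation p = 0.9, 0.5 and 0.9). All 5 ratios were chosen after the values were seen, so they describe these libraries only.

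**Figure D3:**
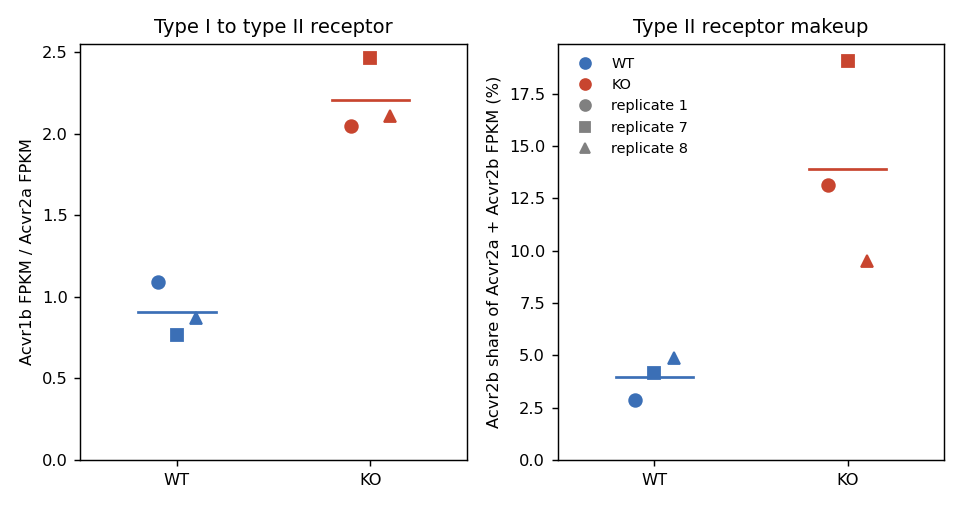
Left, the ratio of *Acvr1b* to *Acvr2a* FPKM in each library, and right, the share of *Acvr2b* in the summed FPKM of *Acvr2a* and *Acvr2b*, in percent, with WT in blue, KO in red and bars at the means. Every KO library lies above every WT library in both, with ratios of 2.05 to 2.46 against 0.765 to 1.09 and shares of 9.50% to 19.1% against 2.87% to 4.85%. Both separations follow from those of the single genes.

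The genes of the follistatin family showed no difference that passed the test. *Fst* (ENSMUSG00000021765, chromosome 13, 114452290 to 114458951, minus strand), which encodes follistatin, read 1.77, 2.38 and 1.86 FPKM in the WT libraries, against 1.64, 2.41 and 1.41 FPKM in the KO libraries. The genotypes overlapped, and the log2 fold change was -0.16 (SE 0.23, adjusted p = 0.691). The highest WT and the highest KO library were nearly equal. *Fst* shares 115 exonic bases with *Gm47040*, an antisense gene.

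*Fstl1* (ENSMUSG00000022816, chromosome 16, 37776873 to 37836514, plus strand), a secreted glycoprotein of the follistatin family, read 18.4, 12.6 and 14.1 FPKM in the WT libraries, against 16.2, 21.0 and 13.7 FPKM in the KO libraries. These also overlapped, with a log2 fold change of 0.17 (SE 0.20, adjusted p = 0.618). Its highest value was in KO replicate 7, the library with the highest sums of adipocyte, macrophage, Schwann cell and endothelial markers. The fibroblast marker sum was 108 to 160 FPKM in WT and 114 to 207 FPKM in KO.

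*Fstl3* (ENSMUSG00000020325, chromosome 10, 79777272 to 79782630, plus strand), an activin and myostatin antagonist, was under the filter and so is not among the 9 genes tested. WT replicates 1 and 7 read 0.0986 and 0.0349 FPKM and WT replicate 8 was listed at 0, while the KO libraries read 0.207, 0.494 and 0.223 FPKM. The genotypes did not overlap (two-sided exact permutation p = 0.1), but these values rest on no more than 17.5 estimated fragments in any library. With no filter on low FPKM its log2 fold change was 1.49 (SE 0.38, adjusted p = 0.144, limma), a value that depends on the pseudocount since 1 library is listed at 0. In addition, 1157 exonic bases of *Fstl3* overlap *Prss57*, a serine protease gene on the other strand that was at 0.268 to 0.347 FPKM in WT and 0.237 to 0.562 FPKM in KO.

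Among the intracellular genes, all 3 SMADs overlapped between the genotypes. *Smad2* (ENSMUSG00000024563), a signal-carrying SMAD, read 5.38, 5.65 and 5.25 FPKM in the WT libraries, against 5.58, 5.49 and 3.80 FPKM in the KO libraries. WT libraries and 2 of the 3 KO libraries were close together, and KO replicate 8 was the lowest. The log2 fold change was -0.15 (SE 0.17, 95% interval -0.54 to 0.24, adjusted p = 0.598).

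*Smad3* (ENSMUSG00000032402, chromosome 9, 63646767 to 63757994, minus strand), the other signal-carrying SMAD, was higher and more variable. It read 19.9, 38.4 and 45.6 FPKM in the WT libraries, against 29.5, 25.0 and 30.4 FPKM in the KO libraries. Here the WT libraries were spread 2.29-fold from lowest to highest and the KO libraries 1.22-fold, the reverse of *Mstn*. The log2 fold change was -0.21 (SE 0.29, adjusted p = 0.664).

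*Smad7* (ENSMUSG00000025880), the inhibitory SMAD that is itself induced by the pathway, read 1.07, 1.09 and 1.71 FPKM in the WT libraries, against 2.17, 1.15 and 2.03 FPKM in the KO libraries. KO replicate 7 lay among the WT libraries, and the other 2 KO libraries lay above them. The log2 fold change was 0.42 (SE 0.30, adjusted p = 0.393).

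Across the 10 genes, 0 of the 9 tested passed an adjusted p under 0.05, against 0.324% of all tested genes (40 of 12334, of which 31 were higher and 9 lower in KO). At an unadjusted p under 0.05, 3 of the 9 passed, *Acvr1b* and *Acvr2b* higher and *Acvr2a* lower. The same threshold passed 26.2% of all tested genes, 15.3% higher and 10.9% lower in KO. Of the 9, the genotypes did not overlap in 3, against 34.5% of all tested genes, so the count for these genes is near the background. In addition *Fstl3*, which was not tested, did not overlap. *Acvr2b* reached the minimum mean for testing only through its KO libraries, so its place in these counts depends on them. The median log2 fold change of the 9 was -0.15, against 0.010 over all tested genes.

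In WT muscle the order of levels ran from *Mstn* through *Smad3*, *Fstl1*, *Acvr2a*, *Acvr1b*, *Smad2*, *Fst*, *Smad7* and *Acvr2b* to *Fstl3*. Only *Acvr2a* and *Acvr1b* overlapped among neighbours in that order. In KO muscle *Acvr1b* stood above *Acvr2a*, with no overlap, and the neighbours *Mstn* and *Smad3*, *Fstl1* and *Acvr1b*, *Acvr2a* and *Smad2*, and *Fst* and *Smad7* overlapped.

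Fold change followed the GC content of the transcripts across the whole table, and most of these genes lay along the same trend. Over the 11985 tested genes of known GC content, Spearman's rho between log2 fold change and GC content was 0.70, a description across genes, which share their libraries. *Mstn* (37.8% GC) and *Acvr2a* (40.4% GC), both below the median of 50.1%, had negative values, and *Acvr1b* (53.5%), *Smad7* (58.6%) and *Acvr2b* (59.0%), all above it, had positive ones. *Fst* (47.2%) and *Smad2* (46.5%), below the median, had negative values too. *Fstl1* (49.3%) was below the median with a positive value, and *Smad3* (53.7%) above it with a negative one.

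After a curve against GC content was taken from each library, all 9 tested genes overlapped between the genotypes and 0 of 9 passed an unadjusted p under 0.05. Under the same correction 17.3% of all 11985 genes did not overlap and 10.8% passed that threshold. The log2 fold change became -0.37 for *Acvr2a*, 0.43 for *Acvr2b*, 0.32 for *Acvr1b* and -0.46 for *Smad3*. The sign turned for *Mstn* (0.075) and *Smad7* (-0.14). Whether the trend comes from library preparation or from the muscle was not tested.

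**Figure D4:**
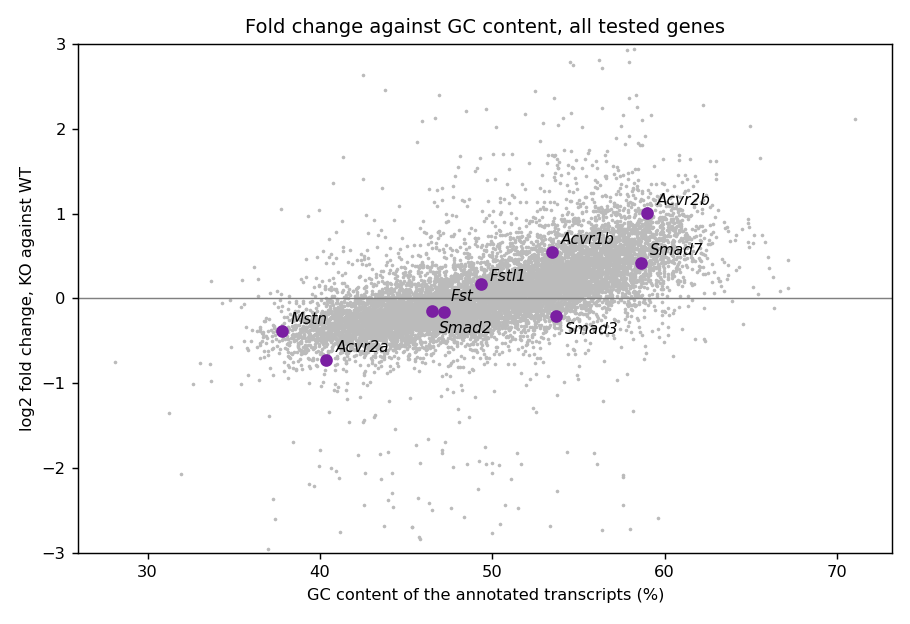
Log2 fold change of KO against WT plotted against the GC content of the annotated transcripts, in percent, for the tested genes of known GC content (grey), with the 9 tested genes of the route in purple. The cloud rises from low to high GC content, and *Mstn* and *Acvr2a* sit at its low end and *Acvr2b* and *Smad7* at its high end (80 tested genes beyond 3 on the log2 scale are not drawn).

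The other genes of the pathway were read from 8 lists, which hold 105 further genes of the table, 78 of them tested. Of these 78, 0 passed an adjusted p under 0.05, and 24 passed an unadjusted p under 0.05 (17 higher and 7 lower in KO). That is 30.8%, against 26.2% of all tested genes, and after GC correction 7 of the 78 passed it, 8.97% against 10.8% of all genes under that correction. Their median log2 fold change was 0.11, and 0.016 after GC correction. Over all tested genes 15.3% were higher and 10.9% lower at the unadjusted threshold, which is the background for the count of each list below. Counts per list were not taken after GC correction. Values follow for the genes with the largest differences past the unadjusted threshold.

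Among 8 other ligands tested, 1 was past it, *Bmp4*, a bone morphogenetic protein (1.09 to 1.89 FPKM in WT, 2.18 to 2.75 FPKM in KO, log2 fold change 0.72 and after GC correction 0.47, adjusted p = 0.114). *Gdf11*, the closest paralog of *Mstn*, read 3.05, 3.60 and 2.98 FPKM in the WT libraries, against 5.46, 2.56 and 2.59 FPKM in the KO libraries. KO replicate 1 was thus the highest library for both paralogs (log2 fold change 0.051, adjusted p = 0.927).

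Of 12 other receptors and co-receptors, 1 was higher and 3 were lower at the unadjusted threshold. *Eng*, the endothelial co-receptor endoglin, was at 4.98 to 5.92 FPKM in WT and 6.58 to 12 FPKM in KO (adjusted p = 0.107). The type II receptor gene *Bmpr2* was at 3.35 to 4.48 FPKM in WT and 1.91 to 2.93 FPKM in KO (adjusted p = 0.0912). The type I receptor gene *Tgfbr1* was at 8.32 to 10.9 FPKM in WT and 5.57 to 8.01 FPKM in KO (adjusted p = 0.153). *Acvr1c*, the paralog of *Acvr1b*, did not exceed 0.232 FPKM in any library and was not tested. After GC correction the log2 fold change went from 0.72 to 0.21 for *Eng*, from -0.73 to -0.35 for *Bmpr2* and from -0.49 to -0.21 for *Tgfbr1*.

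Of 13 genes in the list of other inhibitors and carriers, which also holds *Tcap*, a gene of a protein of the sarcomere inside the cell, 10 had positive fold changes, and 4 were past the unadjusted threshold, all higher. *Ltbp4*, a latent TGF-β binding protein, was at 7.23 to 11 FPKM in WT and 13.5 to 22.7 FPKM in KO (log2 fold change 1.05, adjusted p = 0.0750). *Tcap*, which encodes telethonin, was at 760.0 to 1178 FPKM in WT and 1662 to 1996 FPKM in KO (log2 fold change 0.97, adjusted p = 0.0667). Among ligand-processing proteases, 3 of 5 were past it, with *Bmp1*, a tolloid protease, at 3.76 to 4.84 against 5.70 to 8.61 FPKM and *Furin*, which cleaves ligand precursors, at 2.97 to 4.85 against 6.38 to 6.95 FPKM in WT and KO. After GC correction the log2 fold change was 0.39 for *Ltbp4*, 0.31 for *Tcap*, 0.27 for *Bmp1* and 0.15 for *Furin*. These genes, at 56.4% to 62.2% GC, all lie above the median GC content of 50.1%.

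Of 17 SMAD partners and regulators, 5 had positive and 12 negative fold changes, and 3 were past the unadjusted threshold in each direction. *Wwp2*, a ubiquitin ligase, was at 2.56 to 3.09 FPKM in WT and 4.01 to 4.39 FPKM in KO (adjusted p = 0.0750), while its paralog *Wwp1* was at 57.1 to 73.9 and 41.9 to 49.5 FPKM (adjusted p = 0.109). *Hgs*, an endosomal sorting protein, had a log2 fold change of 0.54, and *Trim33*, a ubiquitin ligase that binds SMADs, one of -0.46. After GC correction the values were 0.29 for *Wwp2*, -0.060 for *Wwp1*, 0.029 for *Hgs* and -0.18 for *Trim33*.

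Of the 12 tested response genes of activin and TGF-β type SMADs, a list that includes *Smad7*, 1 was past the unadjusted threshold, the transcription factor gene *Junb* (0.382 to 0.584 FPKM in WT, 1.17 to 2.63 FPKM in KO, adjusted p = 0.0716). Its WT mean of 0.471 FPKM was under the minimum of 0.5 FPKM, so *Junb* was tested only because its KO libraries were higher. Of 6 response genes of BMP type SMADs, 1 was past it, *Id3*, an inhibitor of DNA binding (2.88 to 4.91 FPKM in WT, 6.16 to 6.38 FPKM in KO, adjusted p = 0.0887). Of the 9 genes in the list of muscle atrophy, which also holds growth genes, 3 were higher and 1 lower at that threshold. The 3 were *Akt1*, *Fbxo31* and *Mtor* (log2 fold change 0.52 for *Mtor*, 0.29 after GC correction). In the same list *Fbxo32* and *Trim63* overlapped between the genotypes (log2 fold change -0.12 and 0.24, adjusted p = 0.846 and 0.633). *Akt1*, a growth kinase, was at 5.86 to 11.7 FPKM in WT and 15.4 to 17 FPKM in KO (adjusted p = 0.0887), and *Fbxo31*, an F-box protein, at 17.6 to 22.5 and 26.8 to 34.1 FPKM (adjusted p = 0.0892). *Deptor*, an inhibitor of mTOR, had a log2 fold change of -0.44 (adjusted p = 0.132). After GC correction the log2 fold change was 0.95 for *Junb*, 0.34 for *Id3*, 0.31 for *Akt1* and -0.28 for *Deptor*, and that of *Fbxo31* turned from 0.54 to -0.049.

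**Figure D5:**
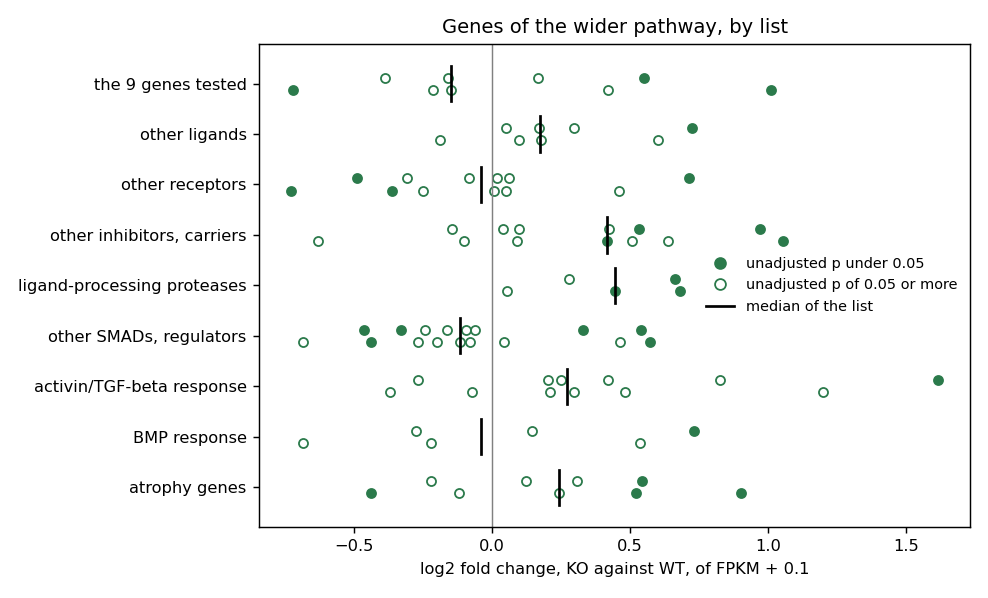
Log2 fold change of KO against WT for the tested genes of each list, with filled circles for an unadjusted p under 0.05, open circles for the rest and a vertical line at the median of the list. Medians run from -0.15 in the 9 genes tested to 0.44 in the ligand-processing proteases.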

How the data were processed

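Libraries of GAS muscle RNA from 3 WT and 3 KO mice were aligned by the authors with TopHat (genome GRCm38), and Cufflinks gave the deposited FPKM of each library, without counts. Tool versions and the annotation release are not given in the sources used here. Groups and replicate numbers came from the labels. Depth was estimated from low FPKM of genes with 1 annotated transcript of 1500 to 6000 bases. The depth kept was the one that made the largest share of these values whole fragments, within a tolerance of 0.15. That share was 89.7% to 93.8% per library, and since it was the quantity maximised it is no separate check of the depth. Genes whose mean reached 0.5 FPKM were tested with limma 3.58.1 (trend on mean expression) in R 4.3.3 on log2(FPKM + 0.1), a scale that understates the change of low genes, with Benjamini-Hochberg adjustment over all tested genes. The test was checked on simulated data. With 3 against 3, an exact permutation test cannot go below 0.1. GC content came from GENCODE vM21 (GRCm38), and for GC correction a loess curve of span 0.3 was subtracted from each library. Beyond the 10 genes, their paralogs, *Mtor*, *Fbxo32* and *Trim63*, each list names up to 2 genes per direction with the largest differences at unadjusted p under 0.05. The genes most like *Mstn* have a mean of at least 5 FPKM. The 10 genes and all lists were chosen with earlier results of these data known, so no count over them is independent evidence. P-values from limma rest on the spread between these 6 mice, with variances moderated towards a trend over all tested genes. The alternatives are given in the closing section. Plots used matplotlib 3.10.9 (Python 3.11.15).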

Additional observations from a re-analysis of the deposited data

How the results depend on the processing

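Whichever setting was used, 0 of the 9 tested genes passed the adjusted threshold, except with array weights, where 3 did (*Acvr2a* -0.80, *Acvr1b* 0.63, *Smad7* 0.69 on the log2 scale) and where 1863 genes of the whole table were called higher and 1284 lower. The count past an unadjusted p went from 3 to 5 with array weights, where *Acvr2b* was lost and *Fst*, *Smad2* and *Smad7* joined. It went to 0 with GC correction, alone or with the replicate block. It was 4 with no filter, where *Fstl3* joined, and 2 with the replicate block alone, where *Acvr2b* was lost. When 1 library was left out it was 2 or 3, but not always for the same genes. *Acvr1b* stayed past the threshold each time. *Acvr2a* was lost without WT replicate 7 or 8, and *Acvr2b* without KO replicate 1, KO replicate 7 or WT replicate 1, while *Mstn* joined without KO replicate 1, *Smad7* without KO replicate 7 and *Smad3* without WT replicate 1. The count for the wider pathway went from 24 to 7 with GC correction and to 6 with the block added. The sign turned with GC correction, with or without the block, for *Mstn* (0.075) and *Smad7* (-0.14). Leaving out each library gave -0.24 to 0.029 for *Smad2* (0.029 without KO replicate 8) and -0.57 to 0.028 for *Smad3* (0.028 without WT replicate 8), and every other tested gene kept its sign. With a minimum mean of 1 FPKM *Acvr2b* was not tested.

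Over the whole table, genes called higher in KO numbered 31. They numbered 7 with a pseudocount of 1, 9 with no filter, 12 without the variance trend, 6 with the replicate block, 6 with GC correction, 5 with both, 9 with length correction, 1 without genes listed at 0, and 6 to 19 when 1 library was left out. Genes called lower numbered 9, with 4 at a pseudocount of 1, 0 without genes listed at 0, and 5 to 19 when 1 library was left out. Libraries with the same number did not deviate together (r = -0.025, -0.080 and 0.034 across genes). With 3 libraries per genotype this cannot exclude that the numbers pair the mice, and the labels do not say what they mean.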
